A study of Mus musculus with 8 samples.

Results

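The untreated cultures of primary mouse microglia were described by RNA sequencing as a baseline transcriptome, gene by gene. They are 4 of the 8 samples of the series and were chosen by their labels, which call them untreated, whereas the methods of the study give PBS as the control treatment. The other 4 samples received IgG and were not used. The mice were wild type. Neocortex and hippocampus of newborn pups were dissociated after removal of the meninges, brains were pooled, and mixed cells grew for 12 days in DMEM with 10% fetal bovine serum. Microglia were then detached by shaking for 2 h, replated for 3 days and, from day 15 in vitro, kept for the 24 h of the experiment. Each untreated library has a label of its own that looks like a date, but the sources used here do not say what it stands for. Culture, litter and any date cannot be told apart.

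Microglia are the resident macrophages of the brain. They descend from the embryonic yolk sac, depend on signalling through the receptor Csf1r, clear debris and synapses by phagocytosis, and carry in the living brain a set of homeostatic genes such as Tmem119, P2ry12 and Sall1. In serum-fed culture, away from neurons and their cytokines, microglia are known to lose part of that set and to take on an amoeboid, phagocytic form.

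Each library held 21287816 to 23571277 counts, of which mitochondrial genes took 2.32% to 2.41%. A gene was called transcribed when it reached 1 CPM (counts per 1000000, scaled by TMM) in all 4 libraries. This held for 15007 genes, among them 12397 of the 21884 nuclear protein-coding genes, a share of 56.6%. A further 4810 protein-coding genes (22.0%) had 0 counts in all 4 libraries, and 4677 had counts but fell short of the threshold. A count of 0 allows up to 3 counts, here 0.129 to 0.140 CPM per library, and this floor covers counting error only. Levels of different genes were compared per length, as transcripts per 1000000 (TPM), except where counts, CPM or no length are named. The union of a gene's exons was taken as its length. Orders between genes are those under this length, and several turned under the length of the longest or the median transcript, as is said where an order is drawn. Values in the 4 libraries are given in the same order throughout. The 703 genes with the most counts held 50% of all counts, and the first 10 of them held 13.1% ± 0.467 (SD, n = 4). Ranked by TPM instead, 135 genes held 50% of the total.

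The 4 genes taken to mark the cells were all transcribed, but at very different levels. C1qa, a chain of the complement protein C1q (chr4:136895917-136898803, mm10), stood at 3784, 3587, 3989 and 2944 TPM. Csf1r, the receptor for CSF1 and IL-34, stood at 453, 418, 470.2 and 407 TPM. Cx3cr1, the fractalkine receptor (chr9:119901616-120069879), stood at 183, 188, 218 and 247 TPM. Tmem119, a membrane protein used to tell microglia from other macrophages (chr5:113793729-113800516), stood at only 4.59, 4.40, 5.31 and 4.37 TPM. No library of one of these genes reached into the range of the next, and each order held in 4 of 4 libraries and with the other transcript lengths. With 4 libraries the exact sign-flip permutation test, two-sided, cannot go below p = 0.125, and an order is described here as apart where it holds in every library without overlap of the ranges.

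Of 25 microglia markers 23 were transcribed, against 56.6% of all protein-coding genes, and together they made up 21288 ± 1197 TPM (SD, n = 4). The lysosomal and complement members carried nearly all of this sum. Ctss (cathepsin S) had 3987 ± 185 TPM, Tyrobp (the signalling adaptor of TREM2) 3205 ± 162 TPM and Cst3 (cystatin C) 2968 ± 173 TPM. The surface receptors came an order below. Trem2, a lipid receptor, had 355 ± 29.2 TPM, Itgam (CD11b) 286 ± 11 TPM, Fcrls, an Fc receptor-like protein, 178 ± 40.8 TPM and Mertk, a receptor for dying cells, 61.1 ± 3.61 TPM. A share of 68.7% of the exon length of Itgam lies in a second annotated gene, Gm49368, so its count is uncertain.

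The homeostatic members stood at the bottom of the list. Sall1, the transcription factor of microglial identity, had 8.92, 8.14, 9.02 and 9.19 TPM, P2ry12, the ADP receptor of process movement, 5.92, 6.19, 6.22 and 4.96 TPM and P2ry13, its neighbour on the chromosome, 4.86, 4.83, 5.46 and 5.51 TPM. Olfml3, a secreted matrix protein, had 4.86, 4.27, 4.92 and 3.96 TPM, so that Tmem119 and Olfml3 did not differ beyond their spread, nor did P2ry12 and P2ry13. Gpr34, a lysophosphatidylserine receptor, was higher at 11.9 ± 1.38 TPM. The 2 members that were not transcribed were Siglech, a sialic acid-binding lectin, with 0.232, 0, 0.0784 and 0.110 TPM, and Slc2a5, a fructose transporter, with 0.0256, 0.0565, 0.156 and 0 TPM. For Siglech and Slc2a5 the 4 libraries together held 16 and 9 counts. Of the 22 neighbouring pairs in the order of the list that could be formed, 14 were apart and 8 overlapped.

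**Figure D1:**
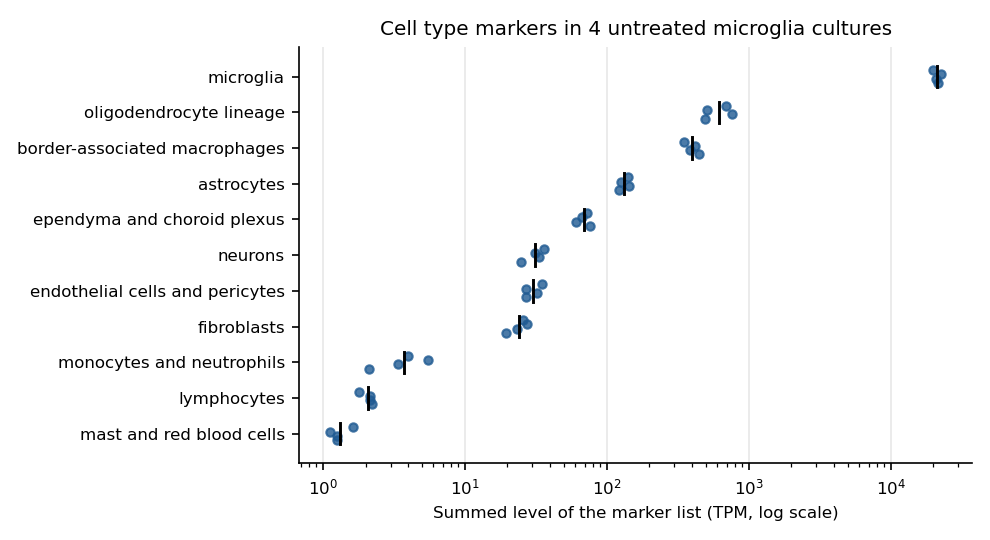
Summed TPM of each fixed list of cell type markers (horizontal axis, log scale) in the 4 untreated libraries (points), with the mean as a black line. The microglia list sits at 19949.7 to 22822 TPM, and no other list passes 758 TPM in any library.

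Markers of other cells were present at far lower sums. The 12 genes of the oligodendrocyte lineage, all transcribed, summed to 491, 758, 513 and 694 TPM, or 2.91% ± 0.743 of the microglia sum. Among their leading members were the myelin gene Mbp with 149.8, 231, 157 and 207 TPM, Cnp, a myelin phosphodiesterase, with 85.0 ± 10.1 TPM and Olig1, a lineage factor, with 55.3 ± 13.4 TPM. Border-associated macrophages, the macrophages of meninges and vessels, had 6 of 12 markers transcribed (50%, near the 56.6% of all protein-coding genes) and summed to 399 ± 40.6 TPM, 1.87% ± 0.138 of the microglia sum. The scavenger receptor Stab1 had 157 ± 8.79 TPM, Ms4a7 96.0 ± 14.1 TPM, Siglec1 90.6 ± 18.9 TPM and the mannose receptor Mrc1 22.3 ± 3.54 TPM, whereas Lyve1 and Cd163, the 2 lowest of the list and named after their values were seen, stood at 0.0487 and 0.0297 TPM on average. Astrocyte markers summed to 133 ± 11 TPM, or 0.630% of the microglia sum, with 11 of 12 transcribed (56.6% of all protein-coding genes), S100b at 69.8 ± 10.3 TPM, Gfap at 30.2 ± 4.76 TPM and Gjb6 at 0 counts. With the median transcript length the shares of the microglia sum were higher, 6.71% ± 1.73 for the oligodendrocyte lineage, 6.26% ± 0.294 for border-associated macrophages and 1.2% ± 0.191 for astrocytes. The microglia list has 25 genes, and the lists of these other cells have 12 each. Lysosomal and complement genes carry nearly all of the microglia sum, and whether other macrophages share them was not tested. These shares depend on the genes listed and are not shares of cells. These are bulk libraries, in which fewer cells of a type and less RNA per cell cannot be told apart.

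The remaining lists were lower still. Ependyma and choroid plexus summed to 69.0 ± 6.65 TPM, nearly all of it Ttr (transthyretin) with 66.4 ± 6.65 TPM, while Ccdc153 and Tmem212 had 0 counts. Neurons summed to 31.3 ± 4.65 TPM, with the tubulin gene Tubb3 at 18.5 ± 1.99 TPM, below Map2 with the median transcript length, and Slc17a6 had 0 counts. Endothelial cells and pericytes summed to 30.2 ± 3.84 TPM, led by Flt1 with 21.9 ± 3.47 TPM, and Cldn5, the tight junction gene of brain vessels, had 0 counts. Fibroblasts summed to 24.0 ± 3.43 TPM, led by Postn with 21.1 ± 3.83 TPM, and Lum had 0 counts. Monocytes and neutrophils had none of their 12 markers transcribed, against 56.6% of all protein-coding genes, and summed to 3.74 ± 1.4 TPM, with S100a9, Plac8, Ly6g, Mpo and Elane at 0 counts. Lymphocytes summed to 2.09 ± 0.187 TPM with 7 of 12 markers at 0 counts, against 22.0% of all protein-coding genes, among them Cd3d, Cd3e, Cd3g and Cd8a. Mast and red blood cells summed to 1.32 ± 0.220 TPM, with both Hbb-bs and Hbb-bt at 0 counts.

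Among nuclear protein-coding genes, which leave out mitochondrial and non-coding genes, Lyz2, Apoe and Ctsd were the highest named genes. Lyz2, the macrophage lysozyme, had 29738, 30775, 30149 and 34448 TPM. Apoe, the main lipid carrier protein of the brain, followed with 25288, 24607, 26007 and 23061 TPM. Lyz2 was above Apoe in every library, but Apoe was above Lyz2 with the longest or the median transcript length, and it took more counts, 25760.0 against 20025 CPM. Ctsd, cathepsin D, had 16483, 16864, 16521 and 18477 TPM, and Spp1, osteopontin, had 10625, 13586, 13296 and 16467 TPM. The unnamed gene model Gm49369 had the third highest mean of these protein-coding genes with 24213 ± 1525 TPM, but 100% of its exon length lies within exons of Ctsd and other genes, so its count is uncertain. Of the exon length of Ctsd 34.4% is shared with Gm49369, so its count is uncertain too. The 5 genes with the highest means held 18.6% ± 0.880 of all protein-coding TPM, and the highest 20 held 28.9% ± 0.834. Both shares include Gm49369 and Ctsd, which share exons. In all 797 protein-coding genes reached a mean of 100 TPM and 50 reached 1000 TPM.

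**Figure D2:**
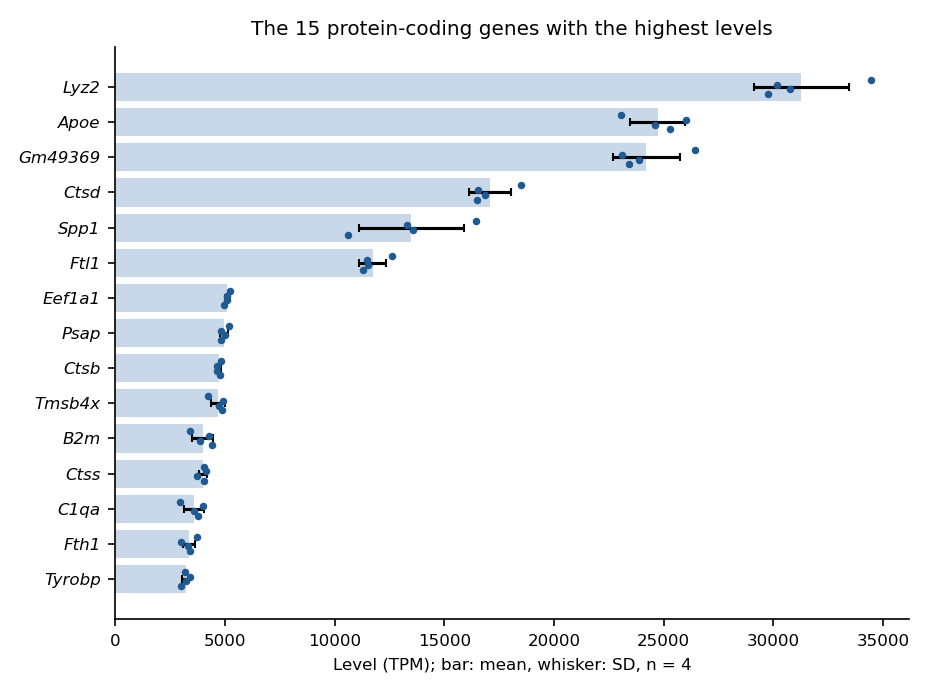
Levels in TPM (horizontal axis) of the 15 nuclear protein-coding genes with the highest means. Bars are means, whiskers SD and points the 4 libraries. With exon union lengths all 4 values of Lyz2, from 29738 TPM upwards, lie above those of Apoe, an order that turns with transcript lengths.

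Lysosomal proteins filled much of the rest of the highest 20. Psap (prosaposin, the precursor of sphingolipid activators) had 4971 ± 175 TPM, Ctsb 4728 ± 90.5 TPM, Ctsz 2264 ± 16.8 TPM and Gpnmb, a glycoprotein of stressed lysosomes, 2299 ± 230.4 TPM. The ferritin light chain Ftl1 had 11732 ± 601 TPM and the heavy chain Fth1 3361 ± 288 TPM. Of housekeeping genes, the elongation factor Eef1a1 (5104 ± 110.4 TPM), the actin-binding thymosin Tmsb4x (4686 ± 302 TPM), the ribosomal protein Rplp1 (2569 ± 184 TPM) and B2m, the light chain of MHC class I (3987 ± 466 TPM), were also among them. Parts of Ftl1 and Eef1a1 are shared with other annotated genes (Gm22133 and Gm10252 in Ftl1, Gm26377 in Eef1a1), so their counts are uncertain. Genes annotated as miRNA took 0.654% of counts but 150029 TPM in total, and nuclear protein-coding genes took 597134 ± 3616 TPM.

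Genes known from disease-associated microglia, a phagocytic and lipid-handling state described near plaques and in developing white matter, were all transcribed (17 of 17, against 56.6% of all protein-coding genes) and summed to 68339 ± 2565 TPM. Apoe, Ctsd, Spp1 and Ctsb were the 4 highest members, although Ctsb was above Spp1 with the median transcript length. Named after their values were seen, Lgals3 (galectin-3) had 1496 ± 97.5 TPM, Lpl (lipoprotein lipase) 671 ± 30 TPM, Clec7a (dectin-1) 369.6 ± 49.4 TPM, Itgax (CD11c) 325 ± 34.0 TPM and Cst7 (cystatin F) 89.5 ± 18.1 TPM. The lowest of the 17 was Csf1 with 21.4 ± 4.86 TPM.

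The chains of protein complexes were compared within each library. The C1q genes varied between libraries in parallel. C1qa had a coefficient of variation (CV) of 13.6%, C1qb of 13.9% and C1qc of 14.3%, but the ratio of C1qa to C1qb was 1.97 ± 0.00800, a CV of 0.407%, and that of C1qb to C1qc 1.24 ± 0.0111, a CV of 0.894%. The CV of a ratio does not depend on gene length, while the ratio itself does, and C1qb was below C1qc with the longest transcript, with the median transcript length and without length. Ftl1 exceeded Fth1 3.50 ± 0.219-fold, Itgb2 (CD18) exceeded Itgam 1.95 ± 0.179-fold and Tyrobp exceeded Trem2 9.09 ± 1.03-fold. The size of these ratios rests on the lengths. Without length the levels lay closer, at 1041 CPM for Tyrobp against 854 CPM for Trem2. Ftl1 had 7650 CPM against 5673 CPM for Fth1, and Itgb2 827 CPM against 699 CPM for Itgam. Tgfbr1 exceeded Tgfbr2 1.55 ± 0.167-fold and Il10rb exceeded Il10ra 1.36 ± 0.0537-fold. Each of these orders held in 4 of 4 libraries (exact sign-flip permutation test, two-sided, p = 0.125 for each of the 10 ratios computed) and, apart from that of C1qb and C1qc, under the 3 other length settings. The NADPH oxidase chains Cyba and Cybb (2.00 ± 0.0713) and the interferon receptor chains Ifnar2 and Ifnar1 (1.12 ± 0.0590) also kept 1 order in every library, but turned round under other length settings.

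The promoters of the most abundant genes were searched for short motifs, first for that of PU.1, the lineage factor of macrophages. Promoters are those of RefSeq on GRCm38.p6, 250 bases before to 50 after each start site, and 32851 were searched on both strands. The PU.1 core GAGGAAGT (ACTTCCTC on the other strand) was found in 3.20% of all promoters and in 3.11% of those of nuclear protein-coding genes. It was found in 17 of the 175 promoters (9.71%) matched to 141 of the 200 highest genes, in 3.08% of the promoters of transcribed genes and in 3.6% of those of genes with 0 counts. The 15 genes behind the 17 promoters include Cd300ld3, Cd300ld4 and Cd300ld5, close copies of 1 receptor gene, which share sequence and may share reads. They also include Spp1, Ctss and C1qc, which are shown with the motif in capitals. In Spp1 it begins 113 bases before the start site, in C1qc 195 bases before, and in Ctss 2 bases before. The fourth sequence is the Ctsd promoter, with the palindrome TCACGTGA, the binding letters of the lysosomal MiT/TFE factors, in capitals, 99 bases before the start. All read 5′ to 3′ on the strand of the gene.
Spp1, chr5:104434861-104435160, plus strand: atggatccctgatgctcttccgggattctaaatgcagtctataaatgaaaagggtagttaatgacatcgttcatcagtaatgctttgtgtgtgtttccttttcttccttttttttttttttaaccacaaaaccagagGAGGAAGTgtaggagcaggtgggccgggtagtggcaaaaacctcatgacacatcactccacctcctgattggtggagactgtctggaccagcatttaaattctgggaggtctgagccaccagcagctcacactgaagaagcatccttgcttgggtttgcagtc
Ctss, chr3:95526536-95526835, plus strand: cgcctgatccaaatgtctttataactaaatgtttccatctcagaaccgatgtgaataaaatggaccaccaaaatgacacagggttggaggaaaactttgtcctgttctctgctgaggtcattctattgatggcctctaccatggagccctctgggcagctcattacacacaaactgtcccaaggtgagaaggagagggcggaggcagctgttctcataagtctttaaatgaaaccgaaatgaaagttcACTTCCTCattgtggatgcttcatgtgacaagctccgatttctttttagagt
C1qc, chr4:136892865-136893164, minus strand: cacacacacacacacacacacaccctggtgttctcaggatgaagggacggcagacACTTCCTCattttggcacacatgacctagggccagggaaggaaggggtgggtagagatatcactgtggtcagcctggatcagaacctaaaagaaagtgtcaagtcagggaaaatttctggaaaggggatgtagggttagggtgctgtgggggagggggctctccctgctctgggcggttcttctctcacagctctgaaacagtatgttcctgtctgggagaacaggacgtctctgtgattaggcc
Ctsd, chr7:142387778-142388077, minus strand: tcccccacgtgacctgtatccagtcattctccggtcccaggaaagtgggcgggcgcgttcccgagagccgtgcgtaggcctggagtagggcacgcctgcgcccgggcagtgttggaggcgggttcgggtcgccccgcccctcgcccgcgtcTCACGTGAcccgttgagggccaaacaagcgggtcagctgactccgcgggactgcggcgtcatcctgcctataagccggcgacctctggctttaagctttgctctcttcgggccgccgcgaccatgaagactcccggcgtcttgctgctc

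TCACGTGA was found in 0.974% of all promoters, in 6 of the 175 promoters of the highest genes (3.43%), in 1.82% of those of transcribed genes and in 0.217% of those of genes with 0 counts. The 6 genes were Ctsd, Eef2, Ctsa, Calr, Arpc5 and Ddx5. The palindrome TTGCGCAA of the C/EBP factors was in 0.183% of all promoters and in none of the 175. The TATA box letters TATAAA were in 13.6% of all promoters, in 29 of the 175 (16.6%), in 6 of the 19 promoters of the highest 20 genes, in 7.03% of those of transcribed genes and in 28.6% of those of genes with 0 counts. Of 21 promoters matched to 18 microglia markers 2 held the PU.1 core, those of Ctss and C1qc, and 1 held TCACGTGA, that of Siglech. A match is a run of letters in this window and not a measured site.

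Receptors were read by family, from the ligand side of the cell inwards. Fc and complement receptors had the highest sum, 3597 ± 101 TPM, with 12 of 19 transcribed (63.2%, near the 56.6% of all protein-coding genes). Fcer1g, the common signalling chain of the activating Fc receptors, had 1456, 1476, 1409 and 1312 TPM. Itgb2, the shared chain of complement receptors 3 and 4, had 557 ± 55.3 TPM, Fcgr3 (CD16) 361 ± 7.81 TPM and Itgax 325 ± 34.0 TPM. The following members were named after their values were seen, because the study is about IgG. Fcgr1 (CD64), the high-affinity receptor, had 167, 121, 163 and 80.9 TPM, and Fcgr4 had 63.7, 34.3, 59.8 and 27.4 TPM. Fcgr2b (CD32), the inhibitory receptor, had 66.8, 55.4, 71.0 and 68.7 TPM. Fcgrt, the neonatal Fc receptor, had 39.5, 38.7, 31.2 and 26.1 TPM. Fcgr3 stood above Fcgr1 in every library, and the ranges of Fcgr1, at 80.9 to 167 TPM, and Fcgr2b, at 55.4 to 71.0 TPM, did not overlap, although this last order turned with the median transcript length. The anaphylatoxin receptors C3ar1 and C5ar1 had 311 ± 31.3 TPM and 54.8 ± 30.3 TPM. Fcer1a, the IgE-binding chain, had 0 counts.

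Uptake receptors summed to 2995 ± 88.3 TPM, with 16 of 19 transcribed, against 56.6% of all protein-coding genes. Cd68, a late endosomal protein of macrophages, had 1154, 1079, 1138 and 1168 TPM, Trem2 339, 371, 322 and 386 TPM, the fatty acid translocase Cd36 333, 304, 313 and 241 TPM and the endocytic receptor Lrp1 297, 278, 300.2 and 299.5 TPM. Cd68 was above Trem2 in every library, except with the median transcript length, and the ranges of Cd36 and Lrp1 overlapped.

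Toll-like receptors and their partners summed to 1294 ± 58.6 TPM, with 11 of 14 transcribed, against 56.6% of all protein-coding genes. The endotoxin co-receptor Cd14 had 779, 698, 799 and 741 TPM. Tlr7 and Tlr13, endosomal sensors of single-stranded and bacterial RNA, followed with 135 ± 10.0 TPM and 123 ± 5.97 TPM, whose ranges overlapped, and the lipopeptide sensor Tlr2 with 83.0 ± 4.67 TPM. Tlr11 had 0 counts. Of growth factor receptors 15 of 20 were transcribed, against the same 56.6%. Csf1r led, Csf2ra, the GM-CSF binding chain, had 276 ± 21.2 TPM, Tgfbr1 111 ± 4.42 TPM and Csf2rb, the shared GM-CSF signalling chain, 76.7 ± 2.98 TPM, the last 2 changing places with the median transcript length.

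Cytokine receptors were transcribed in 20 of 24 cases, against 56.6% of all protein-coding genes. The TNF receptors Tnfrsf1b and Tnfrsf1a had 207 ± 8.55 TPM and 103 ± 6.12 TPM, an order that turned with the median transcript length, Il10rb had 84.8 ± 2.48 TPM and the interferon-gamma receptor chain Ifngr1 79.0 ± 8.18 TPM. Il1r2, the decoy receptor, and Il2ra had 0 counts. Most chemokine receptors were below the threshold, with 7 of 23 transcribed against 56.6% of all protein-coding genes. Cx3cr1 led and Cxcr4, the receptor of Cxcl12, followed with 109, 109, 108 and 133 TPM, without overlap. Ccrl2, a chemerin-binding receptor, had 18 ± 1.30 TPM, while Ccr4, Ccr7, Cxcr1 and Ackr2 had 0 counts.

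Of purine and adenosine receptors 11 of 19 were transcribed (57.9%, near the 56.6% of all protein-coding genes). P2ry6, the UDP receptor that prompts phagocytosis, had 84.1, 79.6, 87.7 and 82.3 TPM, and P2rx4, an ATP-gated channel, had 80.8, 78.3, 79.0 and 70.2 TPM. P2ry6 was higher in 4 of 4 libraries, but the ranges overlapped and the order turned with the longest or the median transcript length. P2rx7 had 24.0 ± 2.06 TPM and P2ry1 11.5 ± 2.87 TPM, both above P2ry12. Neurotransmitter receptors had 18 of 47 transcribed, against 56.6% of all protein-coding genes, and a sum of only 81.5 ± 6.17 TPM. The serotonin receptor Htr2b had 24.0, 24.6, 19.6 and 23.4 TPM, the cannabinoid receptor Cnr2 15.6 ± 2.46 TPM and the nicotinic chain Chrnb2, which shares 16.3% of its exon length with Adar, 7.46 ± 0.852 TPM. Grm2 and Oprd1 had 0 counts.

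**Figure D3:**
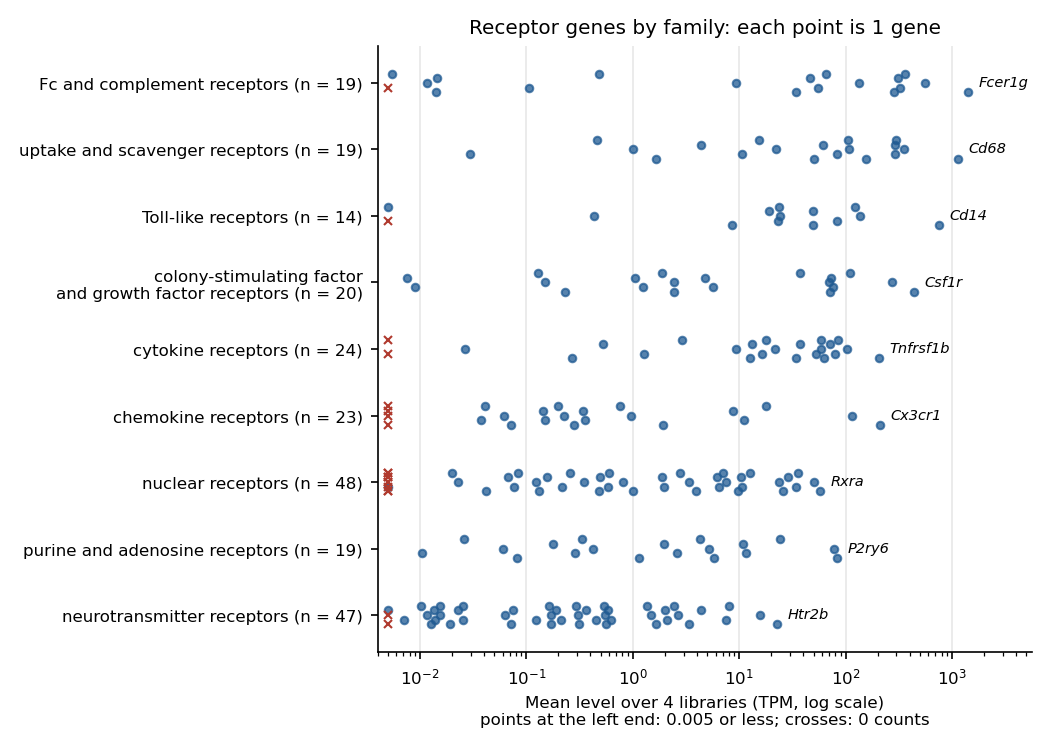
Mean TPM over the 4 libraries (horizontal axis, log scale) of each receptor gene, by family. Points are genes, crosses are genes with 0 counts in all 4 libraries, and the highest member of each family is named. Fcer1g, Cd68 and Cd14 lead their families, and most chemokine and neurotransmitter receptors lie below 1 TPM.

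Several ligands of these receptors were transcribed in the same cultures. Gas6, a bridging ligand of Mertk and Axl, had 341, 305, 338 and 334 TPM. The inflammatory chemokines Ccl5, Ccl4 and Ccl3 had 288 ± 105 TPM, 268 ± 60.7 TPM and 249.6 ± 18.8 TPM, and their ranges overlapped. C3 had 179.5, 139, 173 and 124 TPM, the trophic factor Igf1 145, 135, 134 and 149 TPM, Tgfb1 111, 105, 108 and 107 TPM and Pdgfb 79.7 ± 3.74 TPM. Of the ligands of Csf1r, Csf1 had 15.1, 20.6, 23.4 and 26.5 TPM and Il34, made by neurons in the brain, 0.222, 0.441, 0.180 and 0.190 TPM. Cx3cl1 stood at 0.856 ± 0.223 TPM and Cxcl12 at 0.0393 ± 0.0237 TPM, against the levels of Cx3cr1 and Cxcr4 given above.

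Of inflammatory cytokines Tnf had 22.8 ± 2.41 TPM, Il1b 36.6, 36.1, 41.8 and 18.6 TPM, and its antagonist Il1rn 10.5 ± 2.80 TPM. Il6 and Il10 were not transcribed, with 0.141 ± 0.0184 TPM and 0.157 ± 0.0377 TPM. All 13 interferon-alpha genes and Ifng had 0 counts, and Ifnb1 had counts in 1 library alone, at 0.128 TPM. Bdnf stood at 0.0436 ± 0.0191 TPM.

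Transcription factors of the myeloid lineage were all transcribed (20 of 20, against 56.6% of all protein-coding genes) and summed to 1623 ± 46.4 TPM. Cebpa, a C/EBP factor of early myeloid cells, had 266, 270.4, 299 and 282 TPM, and Spi1, which encodes PU.1, had 271, 254, 276 and 240.1 TPM, so the 2 did not differ beyond their spread. Id2, an inhibitor of E proteins, had 253 ± 8.65 TPM. Cebpb, a C/EBP factor of activated macrophages, had 170.2, 167, 168 and 167 TPM. Irf8, needed for microglial development, had 81.2, 80.1, 86.3 and 81.7 TPM, which was above Cebpb with the median transcript length. Runx1 and Mef2c had 13.4 ± 1.18 TPM and 21.1 ± 0.883 TPM. Sall1 and Sall3, with 4.92 ± 0.822 TPM for the latter, and Klf4 with 1.11 ± 0.311 TPM were the lowest members.

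Within families 1 or a few members stood above the rest. Of 26 ETS factors 17 were transcribed (65.4%, against 56.6% of all protein-coding genes), and Spi1 exceeded the next, Etv5 with 51.9 ± 4.14 TPM, in every library, while Spib and Spic, its close relatives, had 0.0805 ± 0.0645 TPM and 0.0175 ± 0.0117 TPM and Fev had 0 counts. In the IRF family Irf5 had 148, 145, 149 and 142 TPM and Irf7, an interferon-induced factor, 99.4, 58.3, 85.7 and 31.7 TPM. Irf4 was not transcribed. In the STAT family Stat6, the factor of interleukin-4 signalling, had 87.0, 82.5, 84.7 and 80.4 TPM, Stat2 80.4, 58.6, 66.1 and 40.3 TPM and Stat3 32.6, 30.2, 32.4 and 29.7 TPM, while Stat4 stood at 0.0525 ± 0.0395 TPM. Irf5 was above Irf8 in every library, although this order turned with the median transcript length.

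The 5 NF-kB genes were all transcribed, from 60.2 ± 1.93 TPM for Rela to 11.8 ± 0.182 TPM for Rel. Of the MiT/TFE factors, which drive lysosomal genes, Mitf had 33.3, 34.5, 35.0 and 33.8 TPM, Tfe3 30.8, 31.1, 29.2 and 30.6 TPM, Tfeb 15.7, 18.4, 15.6 and 17.4 TPM and Tfec 2.61 ± 0.565 TPM, but Mitf and Tfe3 changed places with the longest transcript, and Tfe3 and Tfeb with the median transcript length. Among early response factors Atf3 had 322, 331, 334 and 322 TPM, Jund 214 ± 8.50 TPM, Junb 178 ± 9.67 TPM and Fos 36.7 ± 6.0 TPM. Jund shares 52.6% of its exon length with Gm11175, and it was below Junb with the longest or the median transcript length. None of 6 GATA factors was transcribed, against 56.6% of all protein-coding genes, and Gata5 had 0 counts.

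**Figure D4:**
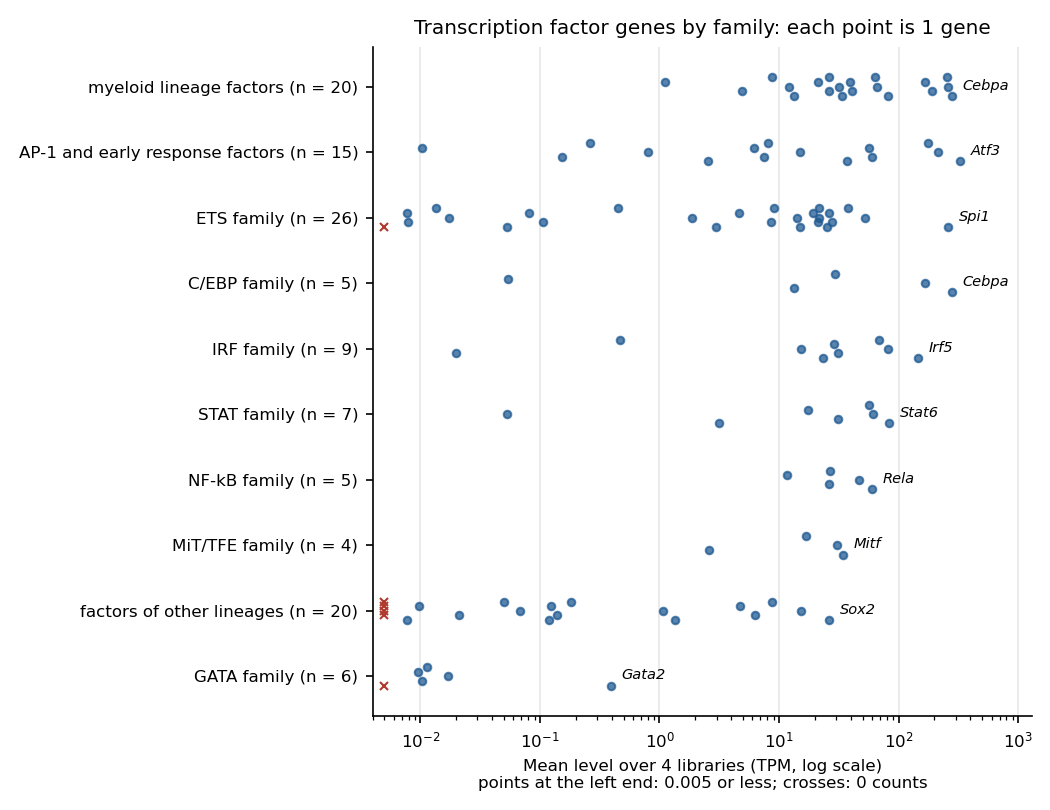
Mean TPM over the 4 libraries (horizontal axis, log scale) of each transcription factor gene, by family. Points are genes, crosses are genes with 0 counts in all 4 libraries, and the highest member of each family is named. Myeloid factors lie at or above 1.11 TPM, and no GATA factor passes 0.395 TPM.

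Factors of other lineages were transcribed in 6 of 20 cases, against 56.6% of all protein-coding genes. Sox2, of neural progenitors and astrocytes, had 21.5, 31.3, 23.7 and 29.1 TPM, and the oligodendrocyte factors Olig2 and Sox10 had 9.57, 19.2, 11.7 and 20.4 and 7.08, 11, 6.69 and 9.95 TPM. Foxp3, the factor of regulatory T cells, had 6.28, 6.47, 6.74 and 5.92 TPM, and 45.5% of its exon length lies in exons of other annotated genes. The T cell genes Cd3d, Cd3e and Cd3g had 0 counts, and the source of the Foxp3 counts was not tested. Neurog2, Tbr1, Myod1 and Cdx2 had 0 counts. Of 48 nuclear receptors 24 were transcribed (50%, against 56.6% of all protein-coding genes). The retinoid X receptor Rxra had 58.1 ± 1.77 TPM, the liver X receptor Nr1h2 50.4 ± 1.12 TPM, Esrra 35.5 ± 1.30 TPM and Nr2f6 33.9 ± 0.83 TPM, 54.4% of whose exon length is shared with Ocel1. Rxra and Nr1h2 changed places with other transcript lengths. Among the 9 with 0 counts were Hnf4a, Nr1h4, Nr5a1 and Esr2.

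Several families of sensory and epithelial tissues were mostly undetected. Of 1135 odorant receptor genes 1032 had 0 counts in all 4 libraries (90.9%, against 22.0% of all protein-coding genes), and 3 were transcribed. Olfr111 (chr17:37508030-37532449) had 36.2, 29.1, 36.9 and 31.2 TPM, its neighbour Olfr110 (chr17:37492468-37500207) 16.0, 13.8, 16.0 and 14.1 TPM, and Olfr56 was the third. Type 1 vomeronasal receptors had 193 of 209 genes at 0 counts, and type 2 had 100 of 122. Bitter taste receptors had 34 of 35 at 0 counts, keratin-associated proteins 52 of 57, defensins 58 of 64 and keratins 41 of 53. In contrast, cytosolic ribosomal proteins were transcribed in 74 of 77 cases, proteasome subunits in 39 of 40 and complex I subunits in 45 of 46, against 56.6% of all protein-coding genes. The ribosomal proteins summed to 26666 ± 789 TPM.

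Cell division genes were all transcribed (14 of 14, against 56.6% of all protein-coding genes), 5 of them above 10 TPM and 1 above 100 TPM. Pcna, a clamp of DNA replication and repair, had 200.2 ± 6.73 TPM, the cycle inhibitors Cdkn1a and Cdkn2a had 68.4 ± 4.44 TPM and 42.1 ± 4.00 TPM, and Mcm3 had 22.4 ± 0.460 TPM, which was above Cdkn2a with the median transcript length. Mki67, the usual mark of cycling cells and named after its value was seen, had 7.67, 8.57, 7.53 and 8.83 TPM. Of 7 genes of MHC class II 3 were transcribed (42.9%). The invariant chain Cd74 had 36.0, 43.8, 38.4 and 36.2 TPM, while the antigen-presenting chains H2-Ab1 and H2-Aa had 1.25 ± 0.365 TPM and 0.711 ± 0.215 TPM and Ciita, the master regulator, had 0.140 ± 0.0492 TPM, H2-Aa and Ciita being named after their values were seen.

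The spread between the untreated cultures was small for most genes. Over the 9976 genes with a mean of at least 10 CPM the median CV was 5.75%, the 10th percentile 2.45% and the 90th 13.5%. A CV above 20% was seen in 431 of these genes, and above 50% in 26. Pkm (pyruvate kinase), Eef2 and Ctsz were the steadiest protein-coding genes with at least 1000 CPM, at 0.549%, 0.633% and 0.900%. By group, ribosomal proteins had a median CV of 3.86%, NF-kB genes 3.34%, myeloid factors 5.92% and microglia markers 7.47%, whereas astrocyte markers had 17.3% and oligodendrocyte lineage markers 23.4%. These medians are descriptions and were not tested against each other.

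**Figure D5:**
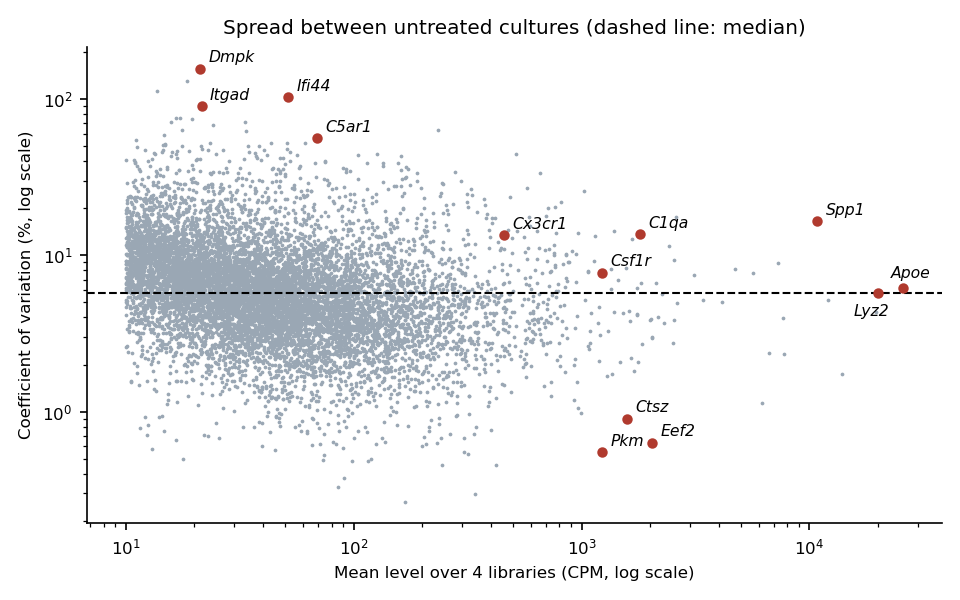
Coefficient of variation over the 4 libraries (vertical axis, log scale) against mean CPM (horizontal axis, log scale) for the 9976 genes with a mean of at least 10 CPM. The dashed line is the median, 5.75%, and named genes are in red. Pkm, Eef2 and Ctsz lie at or below 0.900%, and Dmpk and Ifi44 lie above 100%.

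The gene with the highest CV was Dmpk, the myotonic dystrophy kinase (chr7:19083849-19093821), at 156%. It had 5.44, 4.48, 71.0 and 3.96 CPM, so that 1 library alone was high, and without that library its mean was 4.63 CPM and its CV 16.3%. The interferon-induced genes Ifi44l and Ifi44, which lie side by side on chromosome 3, had 28.8, 0, 25.1 and 0.667 CPM and 104, 4.57, 90.6 and 6.90 CPM, with 2 libraries high and 2 low. Itgad (CD11d) had 8.66, 4.20, 46.7 and 26.5 CPM. The lincRNA Gm42047 had 0.214, 22.5, 0.303 and 51.2 CPM. The remaining 5 of the 10 most variable genes were Gm36161, Gm8810, Gm10499, H2-Bl and Gm6166, which are a lincRNA and pseudogenes, with CVs of 70.8% to 75.4%. Copies of such genes can share reads, so their counts are uncertain. In the same order of libraries the oligodendrocyte lineage markers summed to 491, 758, 513 and 694 TPM and the border-associated macrophage markers to 443, 389, 416 and 348 TPM, and their part in these differences was not tested.

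Sex-linked genes also varied, with a median CV of 49.2% over 6 genes. Xist, the RNA of the inactive X chromosome, had 40.2, 67.5, 35.6 and 94.5 TPM, and the Y-linked genes Ddx3y and Eif2s3y had 20.7, 13.2, 21.2 and 5.27 and 15.9, 10.9, 16.8 and 5.27 TPM. Xist was highest in the library in which Ddx3y and Eif2s3y were lowest, and all 6 genes were transcribed in every library. How far the sex of the pooled pups moved with other genes was not tested.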

How the data were processed

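Poly(A) RNA of primary microglia was sequenced after oligo(dT) enrichment with a NEBNext Ultra library kit. The authors deposited whole-number counts per Ensembl gene. The submitters' processing notes name HISAT2 2.2.1, SAMtools 1.12, Picard 2.26.3, featureCounts, edgeR 3.36.0, R 4.1.2 and the build GRCm38. The annotation, the use of strand and the treatment of multi-mapped and overlapping reads are not given in the sources used here, so genes that overlap or have close copies are uncertain. The 4 columns of IgG-treated cultures were not used.

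Symbols, positions and exon lengths came from GENCODE M21 (mm10), in which 55144 of 55385 identifiers were found. The 241 others held 0.0236% of counts. Counts were scaled to CPM with TMM (edgeR 4.0.16, R 4.3.3) and to TPM with exon union length. Transcribed meant 1 CPM in all 4 libraries, and a CV needed a mean of 10 CPM. Orders and ratios were tested by exact sign flips over the 4 libraries, the scripts having been tested on simulated data. Ddit3 had more than 1 identifier and was left out. No pair of libraries agreed within sampling noise (chi-square per degree of freedom 5.00 to 17.6, over genes with at least 20 counts summed over the pair).

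Genes named were the 4 markers, the 20 protein-coding genes with the highest TPM, the 10 with the highest CV, the 4 highest members of each list, any member of the microglia, factor, complex and ligand lists, and members at 0 counts. Others, among them those found by motif, by low CV or in gene families, were chosen after their values were seen. Some genes that this rule names are not reported here. Members, lists and tests were chosen with earlier results of these data known. Alternatives were total counts or DESeq2 1.42.0 size factors, other thresholds and lengths, and leaving out each library.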

Additional observations from a re-analysis of the deposited data

Results flagged for a closer look

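Among 252 genes, list sums and ratios of the report with more than 3 counts in a library, 7 had 1 library far from the other 3, measured as the gap to the nearest value over the whole range. Chance alone marks about 1 group in 20. For Dmpk the gap was 0.979 of the range, with 33.5 TPM in 1 library and 1.91 to 2.56 TPM in the others. For Eef2 it was 0.945, with 1287 TPM against 1251 to 1253 TPM. For Cxcr4 it was 0.930, with 133 TPM against 108 to 109 TPM. For Csf2rb it was 0.907, with 81.2 TPM against 74.9 to 75.4 TPM. For Lrp1 it was 0.873, with 278 TPM against 297 to 300.2 TPM, and here the single library was the lowest. For Fcrls it was 0.855, with 239 TPM against 153 to 165 TPM. For Il34 it was 0.840, with 0.441 TPM against 0.180 to 0.222 TPM, from 22 counts in all. In Eef2, Csf2rb and Lrp1 the gap is large only relative to a narrow range.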

How the results depend on the processing

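The number of transcribed genes, the number with 0 counts and the median spread stayed within 1.5 times their values under the settings tried, and none of these, nor any summed marker list or chain ratio, moved so far when a library was left out. The genes that hold 50% of the total were 135 by TPM in place of 703 by CPM. The microglia sum was 14082 TPM with median transcript length and 35651 TPM over protein-coding genes only, that of border-associated macrophages 881 and 669 TPM, and that of the oligodendrocyte lineage 938 and 1028 TPM. C1qb over C1qc was 0.771 with the longest transcript, 0.688 with the median length and 0.697 without length. Cyba over Cybb was 0.416 with the median length and 0.359 without length, and Ifnar2 over Ifnar1 0.802, 0.792 and 0.625 in the 3 settings. Of 200 neighbouring pairs that were apart within a list, 12 turned with the longest and 43 with the median transcript length, and of 190 named genes 11 and 131 moved by over 1.5 times. With TPM over nuclear protein-coding genes only, all 190 named genes were higher, by 1.67 to 1.68 times. These settings change the length or the denominator itself.

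No paired analysis was possible because 1 group was described and no comparison between groups was made. Without the library in which it was highest, mean TPM went from 10.01 to 2.2 for Dmpk, from 6.83 to 2.80 for Gm42047, from 17.2 to 11.4 for Ifi44, from 20.2 to 12.8 for Ifi44l and from 9.80 to 6.03 for Itgad. It also fell by over 1.5 times for Ifnb1, Lyve1, Siglech, Slc2a5 and Spib, which had at most 16 counts each in all. Low counts limit the precision of such genes, and 4 libraries allow no p below 0.125.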
